A study of Homo sapiens with 6 samples.

Results

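The genes described here are 55 interferon-stimulated antiviral effectors, a list of gene symbols that all matched a row among the 17534 genes of the deposited table. They are proteins that interferon-treated cells make against viruses, and the members are fixed by gene symbol. RNA sequencing covered 6 libraries of NCI-H1703, a human cell line labelled as lung squamous cell carcinoma. The 3 PPM1G shRNA libraries came from cells with a short hairpin RNA against PPM1G, a metal-dependent serine/threonine phosphatase, and are labelled Sh-PPM1G. The 3 control libraries are labelled Sh-NC by genotype, whereas the series title speaks of wild-type PPM1G. No group was given interferon or a virus, as far as the labels say, and the same cell line underlies both groups. How many hairpins were used, their sequence and the culture behind each library are not given here. The p-values therefore reflect the spread among these libraries alone, and that spread may be technical.

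Interferons are secreted when a cell senses foreign nucleic acid. Type I and type III interferons act through their receptors and the kinases JAK1 and TYK2 on STAT proteins, among them STAT2, which works with the DNA-binding factor IRF9. Complexes that hold IRF9 bind the interferon-stimulated response element (ISRE) in the promoters of antiviral genes, and IRF1 and IRF7 can bind similar elements. The products block viral entry, destroy or sequester viral RNA, edit or modify nucleic acids and proteins, or feed back on the pathway, and many cultured tumour lines express some of them without added interferon.

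The promoters of these genes carry the response element as a repeated GAAA, so the sites are shown first for genes of each direction. RefSeq promoter windows (GRCh38.p14, 250 bases before to 50 bases after a transcript start) were available for 40 of the 55 genes, and 29 of those 40 (72.5%) held the ISRE core, GAAA followed by any 2 bases and GAAA, on either strand. The same letters occurred in 454 of 10751 tested genes with a window (4.22%) and in 1195 of all 27305 genes with a window (4.38%). Each line below gives the 10 letters of the match in capitals with 6 flanking bases, read 5′ to 3′ on the strand named. The first set comes from genes whose RNA was higher in the PPM1G shRNA libraries.
IFIT1 (chr10:89392514-89392535, minus strand): cctaggGAAACCGAAAggggaa
IFIT3 (chr10:89327869-89327890, minus strand): aaactgGAAAGTGAAActaatt
IFIT5 (chr10:89414558-89414579, minus strand): cgctcaGAAACTGAAActtaag
IFITM1 (chr11:314028-314049, plus strand): ttctgaGAAACTGAAAcgacag
MX1 (chr21:41420563-41420584, plus strand): agaaatGAAACCGAAActgaat
ISG15 (chr1:1013384-1013405, plus strand): gaaaggGAAACCGAAActgaag
IFIH1 (chr2:162318690-162318711, minus strand): agaatcGAAACAGAAAccaaag
RSAD2 (chr2:6877626-6877647, minus strand): acatgtGAAACTGAAAgttgaa
IFI6 (chr1:27672292-27672313, minus strand): agagggGAAAATGAAActgcag
IFI27 (chr14:94110622-94110643, minus strand): ttccagGAAACCGAAActgcag
PLSCR1 (chr3:146544671-146544692, minus strand): aaccggGAAAAGGAAAccgtgt
PARP14 (chr3:122680804-122680825, plus strand): ggaaacGAAAGCGAAAgagtca
DTX3L (chr3:122564326-122564347, plus strand): ggaagcGAAACTGAAActttgc

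The second set comes from genes whose RNA was lower in the PPM1G shRNA libraries, so that the letters can be set beside those of the first.
OAS3 (chr12:112938325-112938346, plus strand): agaaacGAAACTGAAAgcaggg
OAS3 (chr12:112938456-112938477, plus strand): gggcggGAAAACGAAAccagaa
GBP1 (chr1:89065320-89065341, plus strand): taatatGAAACTGAAAgtactt
GBP3 (chr1:89022849-89022870, plus strand): cctaatGAAACTGAAAgtactt
TRIM5 (chr11:5685086-5685107, plus strand): gggcagGAAAGTGAAAgataaa
TRIM14 (chr9:98119233-98119254, plus strand): ccaaggGAAACCGAAAcctcgg
EIF2AK2 (chr2:37156971-37156992, minus strand): caagggGAAAACGAAActgaga
ISG20 (chr15:88638941-88638962, plus strand): aaactaGAAACTGAAAcagggt

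Genes of both directions carried the same core. The letters GAAACTGAAA were the core of 14 of the 49 distinct positions, in 14 genes that included IFIT3, RSAD2 and PARP9, which rose, and OAS3, GBP1 and GBP3, which fell. The sites of GBP1 and GBP3, neighbours on chromosome 1, had 18 of 22 letters in common. PARP9 and DTX3L, which lie head to head on chromosome 3, shared a single site.

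Before the antiviral genes, the targeted gene was examined. PPM1G had 182, 194 and 188 CPM (counts scaled to library size by the trimmed mean of M-values, TMM) in the 3 PPM1G shRNA libraries, against 333, 308 and 324 CPM in the 3 control libraries. The knockdown left 0.585 of the control level (log2 fold change -0.77 ± 0.033, SE, adjusted p = 3.3e-20). Library totals ran from 31337553 to 35838246 counts in the PPM1G shRNA group and from 35456562 to 35716901 counts in the control group. Of 13060 genes with enough counts to test, 10821 (82.9%) were called at an adjusted p under 0.05 (edgeR quasi-likelihood test, Benjamini-Hochberg adjustment over all genes tested, used throughout), with 41.5% higher and 41.3% lower in PPM1G shRNA libraries. A call on its own is therefore common in these data, and direction and size carry more of the description than the number of calls.

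The line's label was set against marker genes. Of 20 listed immune and stromal markers, 16 were in the table and 13 of these stayed below 1 FPKM (reads per gene length and library size) in all 6 libraries; the leukocyte marker PTPRC had 0, 1 and 0 counts in PPM1G shRNA libraries against 5, 2 and 3 in control libraries. Of the 7 that could be tested, 2 were higher, 4 lower and 1 was not called. The summed level of that list was 396 to 415 FPKM in PPM1G shRNA libraries and 734 to 763 FPKM in control libraries, and CD68, a lysosomal protein that tumour cells also express, supplied 343 ± 9.2 FPKM in PPM1G shRNA and 717 ± 17 FPKM of it in control libraries (SD, n = 3 each). The collagen gene COL1A1 moved the other way, with 60.1 ± 0.76 FPKM in PPM1G shRNA and 25.2 ± 1.4 FPKM in control libraries. The endothelial gene VWF was higher too, with 0.302 ± 0.038 FPKM in PPM1G shRNA and 0.0573 ± 0.020 FPKM in control libraries. PECAM1, another endothelial gene, was lower, with log2 fold changes of -2.48 to -2.15 when single libraries were left out. Squamous markers were weak: of 10 listed, 8 were in the table and 5 of these, including TP63, KRT6A and KRT14, stayed below 1 FPKM in every library. That list summed to 28.2 to 31.1 FPKM in PPM1G shRNA and 36.8 to 38.1 FPKM in control libraries, and its members differed in direction: 3 of the 4 tested were lower, among them KRT15 at 3.44 ± 0.26 FPKM in PPM1G shRNA and 17.5 ± 0.78 FPKM in control libraries and SOX2 at 4.39 ± 0.27 FPKM in PPM1G shRNA and 8.75 ± 0.60 FPKM in control libraries, while S100A2 was higher at 21.5 ± 1.3 FPKM in PPM1G shRNA and 10.9 ± 0.53 FPKM in control libraries. Of 5 adenocarcinoma markers in the table, 3 could be tested. NKX2-1 stood at 52.6 ± 2.7 FPKM in PPM1G shRNA and 46.1 ± 2.9 FPKM in control libraries and was not called. NAPSA was higher, at 14.8 ± 0.23 FPKM in PPM1G shRNA and 1.37 ± 0.15 FPKM in control libraries, as was MUC1, at 4.57 ± 0.33 FPKM in PPM1G shRNA and 2.73 ± 0.15 FPKM in control libraries, and SFTPB and SFTPC had at most 3 counts in any library. The part of these marker shifts in the antiviral results was not tested. In bulk RNA, fewer cells expressing a gene and less RNA per cell cannot be told apart.

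Most of the antiviral genes were higher after PPM1G knockdown. Of the 54 that could be tested, 37 (68.5%) were higher and 12 (22.2%) were lower in PPM1G shRNA libraries, beside 41.5% and 41.3% of all genes tested. The same background applies to the counts within each role below, which rest on few genes. Calls of at least 2-fold numbered 11 higher (20.4%) and 2 lower (3.70%), beside 11.8% and 12.4% of all genes tested. The median log2 fold change was 0.51 over the 54 genes and 0.015 over all genes tested, and the genes ranged from -1.10 for OAS3 to 2.88 for MX2. The groups did not overlap for 37 genes that were higher and 12 that were lower in PPM1G shRNA libraries, beside 41.9% and 41.8% of all genes tested (83.7% either way). Taking the median over the antiviral genes within each library, the difference from the control mean was 0.52, 0.52 and 0.49 on the log2(CPM + 1) scale in the PPM1G shRNA libraries, against 0.021, -0.009 and -0.021 in the control libraries.

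**Figure D1:**
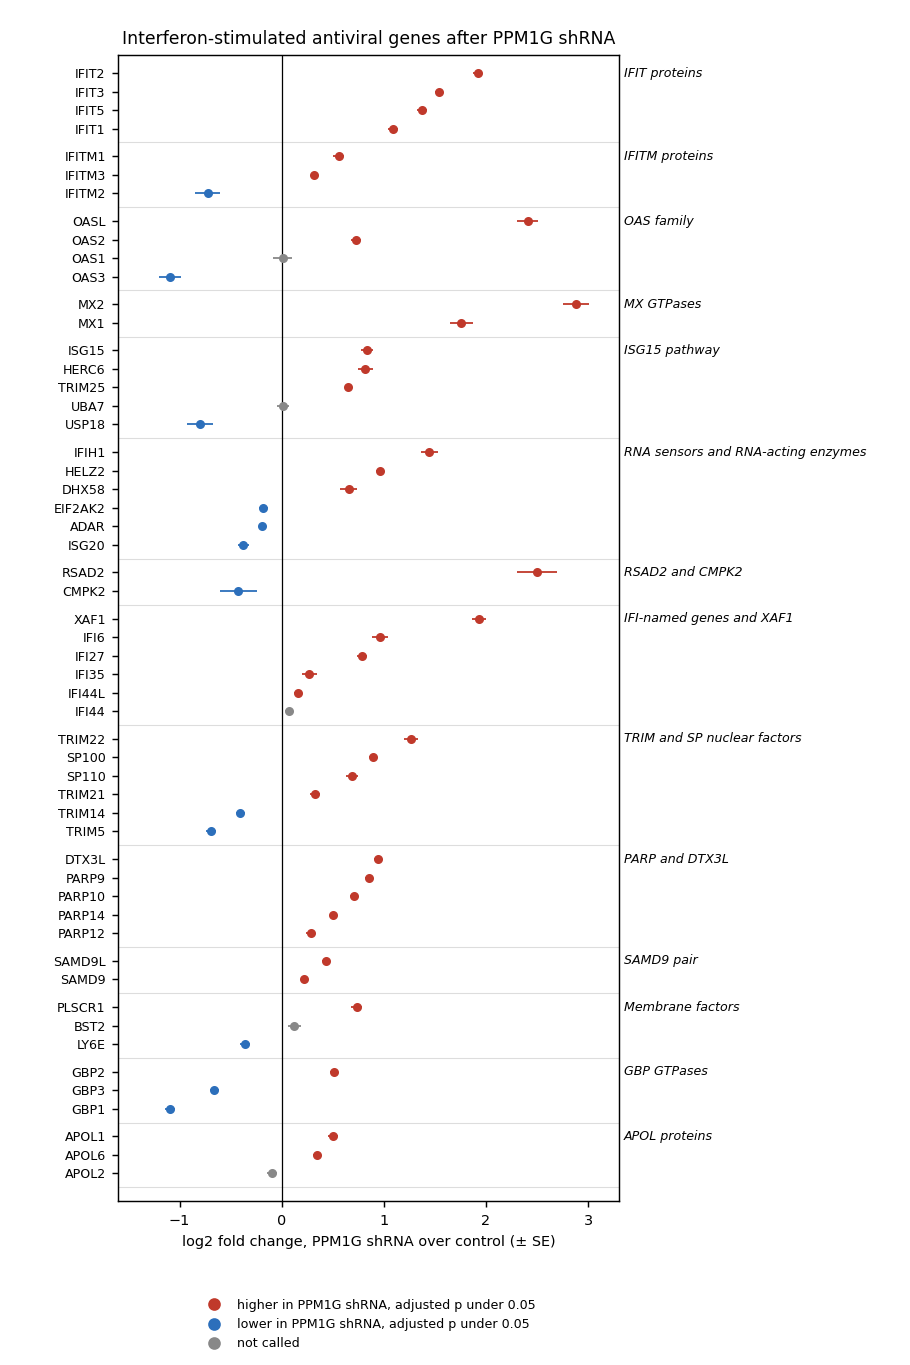
Log2 fold change of the 54 tested antiviral genes, PPM1G shRNA over control, with the standard error as a horizontal bar (3 libraries each), grouped by role. The 37 red points lie right of 0, the 12 blue points lie left of it, and 5 grey points near 0 were not called.

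The IFIT proteins, which bind foreign or incompletely capped RNA and block its translation, were all higher. IFIT2 had 135, 132 and 134 CPM in PPM1G shRNA libraries, against 36.4, 35.8 and 33.7 CPM in control libraries (log2 fold change 1.92 ± 0.043, SE, adjusted p = 4.3e-28). IFIT3, its partner in the IFIT complex, had 201, 207 and 201 CPM in PPM1G shRNA and 72.6, 70.7 and 67.01 CPM in control libraries (log2 fold change 1.54 ± 0.037, SE, adjusted p = 2.7e-27). IFIT5 had 74.97, 73.5 and 76.6 CPM in PPM1G shRNA and 30.2, 29.6 and 27.2 CPM in control libraries (log2 fold change 1.37 ± 0.049, SE, adjusted p = 1.8e-22). Every PPM1G shRNA library lay at more than 2-fold every control library for these 3 genes. IFIT1, the sensor of unmethylated caps, was the least changed of the family (log2 fold change 1.09 ± 0.048, SE, adjusted p = 6.6e-20), with 73.4, 75.05 and 69.5 CPM in PPM1G shRNA libraries and 35.2, 32.6 and 34.7 CPM in control libraries. The family occupies chr10:89302046-89420997 (RefSeq, GRCh38.p14), where IFIT1, IFIT2 and IFIT3 overlap transcripts of LIPA on the opposite strand in GENCODE v29, and the strand setting of the counting is not given. The promoter of IFIT1, shown because its matches stand side by side, reads as follows over the 250 bases before its start, with both matches in capitals as their reverse complement.
IFIT1 (chr10:89392373-89392622, plus strand): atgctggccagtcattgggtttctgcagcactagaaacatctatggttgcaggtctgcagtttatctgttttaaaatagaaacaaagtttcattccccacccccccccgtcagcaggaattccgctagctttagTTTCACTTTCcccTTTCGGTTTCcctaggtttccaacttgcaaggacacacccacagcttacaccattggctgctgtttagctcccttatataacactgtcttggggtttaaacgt

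The MX GTPases, dynamin-like proteins that trap incoming viral ribonucleoproteins or capsids, included the gene with the largest increase of the list. MX2, the nuclear-envelope form that restricts HIV-1 and herpesviruses, had 18.5, 17.7 and 17.2 CPM in PPM1G shRNA libraries, against 1.66, 3.00 and 2.55 CPM in control libraries (log2 fold change 2.88 ± 0.13, SE, adjusted p = 3.5e-19). MX1, the cytoplasmic form that restricts influenza viruses, had 11.7, 12.1 and 12.7 CPM in PPM1G shRNA libraries, against 3.62, 3.93 and 3.25 CPM in control libraries (log2 fold change 1.76 ± 0.11, SE, adjusted p = 1.5e-15). Neither was abundant: per length, MX2 reached 4.90 ± 0.17 FPKM in PPM1G shRNA and 0.618 ± 0.18 FPKM in control libraries, and MX1 2.16 ± 0.10 FPKM and 0.596 ± 0.058 FPKM (SD, n = 3 each). The genes adjoin on chromosome 21, MX2 at chr21:41362027-41409393 and MX1 at chr21:41420558-41459214.

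The OAS family split in direction. OAS1, OAS2 and OAS3 make 2′-5′ oligoadenylates that activate the RNA-degrading enzyme RNase L, whereas OASL lacks that activity and enhances RNA sensing by RIG-I. OASL had 20.8, 21.5 and 19.3 CPM in PPM1G shRNA libraries, against 4.08, 3.15 and 4.38 CPM in control libraries (log2 fold change 2.41 ± 0.10, SE, adjusted p = 3.7e-20). OAS2 rose less, with 53.3, 49.8 and 50.8 CPM in PPM1G shRNA and 32.03, 30.7 and 30.4 CPM in control libraries (log2 fold change 0.72 ± 0.051, SE, adjusted p = 1.6e-14). OAS3, the member tuned to long double-stranded RNA, fell to 6.77, 7.32 and 5.41 CPM in PPM1G shRNA libraries, against 15.5, 12.4 and 13.7 CPM in control libraries (log2 fold change -1.10 ± 0.11, SE, adjusted p = 9.9e-11). Between them OAS1 had 10.4, 11.6 and 11.9 CPM in PPM1G shRNA and 10.6, 12.3 and 10.9 CPM in control libraries, groups that overlapped (log2 fold change 0.009 ± 0.093, SE, adjusted p = 0.93), and its sign changed when single libraries were left out. OAS1, OAS3 and OAS2 lie in that order at chr12:112906962-113011723, so the higher, the lower and the uncalled gene were direct neighbours. The 250 bases before the OAS3 start, shown because this gene fell while holding the element, contain a match far from the start and another that ends just before it.
OAS3 (chr12:112938224-112938473, plus strand): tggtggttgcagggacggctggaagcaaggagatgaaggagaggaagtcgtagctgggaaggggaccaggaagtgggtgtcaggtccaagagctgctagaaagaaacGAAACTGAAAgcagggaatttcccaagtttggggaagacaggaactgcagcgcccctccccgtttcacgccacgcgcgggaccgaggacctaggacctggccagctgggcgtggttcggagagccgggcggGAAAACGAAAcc

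RSAD2 encodes viperin, which makes a chain-terminating nucleotide, and CMPK2 is the mitochondrial nucleotide kinase next to it on chromosome 2. They overlap on opposite strands at chr2:6865885-6898239 and chr2:6840553-6866635. RSAD2 had 5.94, 6.38 and 7.19 CPM in PPM1G shRNA libraries, against 1.31, 1.43 and 0.697 CPM in control libraries (log2 fold change 2.50 ± 0.19, SE, adjusted p = 2.6e-13). CMPK2 had 2.32, 2.59 and 2.45 CPM in PPM1G shRNA libraries, against 3.62, 2.89 and 3.40 CPM in control libraries (log2 fold change -0.43 ± 0.18, SE, adjusted p = 0.031). The groups did not overlap for either gene, but the call on CMPK2 is weak: without control replicate 1 its adjusted p was 0.114, and it missed 0.05 without PPM1G shRNA replicate 1 (0.0869), PPM1G shRNA replicate 3 (0.0674) or control replicate 3 (0.072). The table lists a pair of starts for RSAD2, and the only ISRE core lies before the downstream start, whose preceding 250 bases read as follows with the match in capitals as its reverse complement.
RSAD2 (chr2:6877527-6877776, plus strand): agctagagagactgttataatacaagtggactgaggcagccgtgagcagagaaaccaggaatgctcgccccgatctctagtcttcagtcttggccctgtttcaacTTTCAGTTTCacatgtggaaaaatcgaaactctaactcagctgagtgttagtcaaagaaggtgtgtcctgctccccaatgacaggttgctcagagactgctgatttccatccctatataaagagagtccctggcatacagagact

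**Figure D2:**
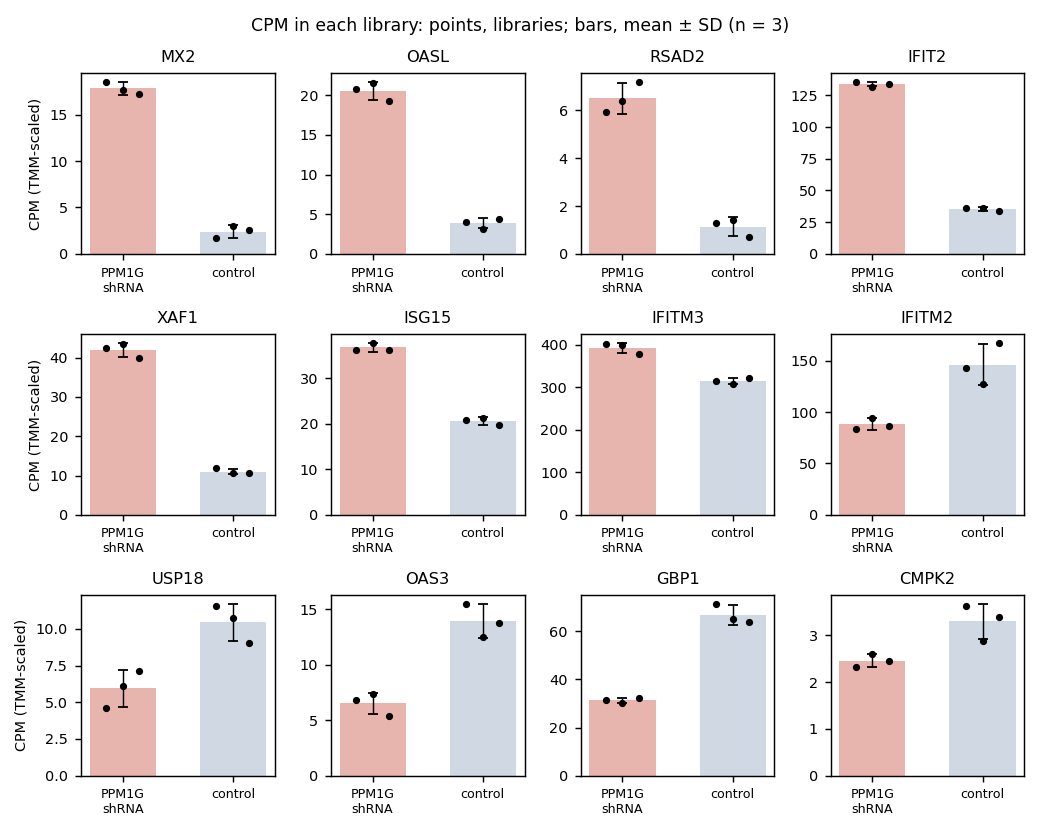
TMM-scaled CPM of 12 antiviral genes in each library, with PPM1G shRNA left and control right; points are libraries, bars the mean and error bars the SD (n = 3). The groups do not overlap in any panel, with PPM1G shRNA higher for MX2, OASL, RSAD2, IFIT2, XAF1, ISG15 and IFITM3 and lower for IFITM2, USP18, OAS3, GBP1 and CMPK2.

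The IFITM proteins, membrane proteins that keep enveloped viruses from fusing, were among the most abundant of the list per length. IFITM3 had 665 ± 19.7 FPKM in PPM1G shRNA and 497 ± 10.2 FPKM in control libraries (SD, n = 3 each), and on the CPM scale 401, 398 and 378 in PPM1G shRNA libraries against 315, 308 and 321 in control libraries (log2 fold change 0.32 ± 0.030, SE, adjusted p = 1.5e-11). IFITM1, which acts at the cell surface, had 119.8, 124 and 113 CPM in PPM1G shRNA and 76.9, 76.1 and 89.5 CPM in control libraries (log2 fold change 0.56 ± 0.053, SE, adjusted p = 6.4e-09). IFITM2 went the other way, with 83.4, 94.4 and 86.9 CPM in PPM1G shRNA and 143, 128 and 168 CPM in control libraries (log2 fold change -0.73 ± 0.12, SE, adjusted p = 0.0041). Its control libraries were widely spread, yet each lay above every PPM1G shRNA library. The genes lie together at chr11:307816-320860 and are close paralogs whose reads can be assigned to the wrong copy, so the split between them is uncertain. IFITM1, IFITM2, IFITM3 and IFI27 together made up 56.2% to 57.5% of the summed FPKM of the 55 genes in PPM1G shRNA libraries and 57.5% to 60.2% in control libraries. The whole sum was 2248, 2309 and 2228 FPKM in PPM1G shRNA libraries, against 1595, 1564 and 1669 FPKM in control libraries.

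In the ISG15 pathway 3 genes were higher, 1 was lower and 1 was not called. ISG15, a ubiquitin-like protein joined to other proteins, had 36.2, 37.9 and 36.4 CPM in PPM1G shRNA and 20.8, 21.3 and 19.7 CPM in control libraries (log2 fold change 0.84 ± 0.061, SE, adjusted p = 3.2e-14). HERC6, a HERC-family ligase that carries out this conjugation in mice, had 26.1, 28.5 and 26.3 CPM in PPM1G shRNA and 14.8, 15.2 and 15.8 CPM in control libraries (log2 fold change 0.82 ± 0.071, SE, adjusted p = 2.5e-12), and TRIM25, a ligase that is itself modified and acts on RIG-I, was also higher (log2 fold change 0.65 ± 0.032, SE, adjusted p = 9.3e-19). USP18, the protease that removes ISG15 and also dampens signalling at IFNAR2, fell to 4.61, 6.13 and 7.13 CPM in PPM1G shRNA libraries, against 11.6, 10.7 and 9.03 CPM in control libraries (log2 fold change -0.80 ± 0.13, SE, adjusted p = 2.2e-06). No PPM1G shRNA library reached the lowest control library for USP18. UBA7, the activating enzyme for ISG15, had 43.5, 43.8 and 41.00 CPM in PPM1G shRNA and 39.2, 40.6 and 47.1 CPM in control libraries, overlapping groups that gave no call (log2 fold change 0.015 ± 0.058, SE, adjusted p = 0.81). HERC5, the main human ISG15 ligase, was nearly absent, with 12, 11 and 6 counts in PPM1G shRNA and 5, 5 and 2 counts in control libraries, and was not tested. Its counts summed to 29 and 12, a ratio of 2.34 after scaling to library size (95% exact interval 1.16 to 5.03, counting error only).

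Of the 6 genes that sense or act on RNA, 3 were higher and 3 lower (50% each). All genes tested were split as evenly, 41.5% higher and 41.3% lower. IFIH1 (MDA5), the sensor of long double-stranded RNA, had 21.6, 20.99 and 21.1 CPM in PPM1G shRNA and 8.14, 7.66 and 7.57 CPM in control libraries (log2 fold change 1.45 ± 0.082, SE, adjusted p = 5.6e-17). HELZ2, an interferon-induced helicase, had 126, 121 and 120.2 CPM in PPM1G shRNA and 61.1, 60.3 and 67.2 CPM in control libraries (log2 fold change 0.96 ± 0.043, SE, adjusted p = 7e-20), and DHX58 (LGP2), a regulator of the RIG-I family, was higher by less (log2 fold change 0.66 ± 0.083, SE, adjusted p = 1.5e-08). Those 3 sat clear of the controls. ISG20, an exonuclease of single-stranded RNA, had 35.6, 34.96 and 33.5 CPM in PPM1G shRNA and 46.7, 43.8 and 44.5 CPM in control libraries (log2 fold change -0.37 ± 0.051, SE, adjusted p = 6.6e-08). ADAR, which edits adenosine to inosine in double-stranded RNA, had 222, 227 and 225 CPM in PPM1G shRNA and 261, 263 and 245 CPM in control libraries (log2 fold change -0.19 ± 0.032, SE, adjusted p = 2e-06). EIF2AK2 (PKR), the kinase that stops translation on double-stranded RNA, had 95.5, 92.7 and 96.8 CPM in PPM1G shRNA and 111, 114 and 97.1 CPM in control libraries (log2 fold change -0.18 ± 0.047, SE, adjusted p = 0.0011). Its highest PPM1G shRNA library nearly touched its lowest control library, and with plain library totals the adjusted p was 0.119.

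The IFI-named genes and XAF1 had 5 higher and none lower of 6. XAF1, a pro-apoptotic antagonist of the inhibitor protein XIAP, had 42.4, 43.5 and 39.95 CPM in PPM1G shRNA libraries, against 11.8, 10.6 and 10.6 CPM in control libraries (log2 fold change 1.93 ± 0.069, SE, adjusted p = 1.9e-22). IFI6, a small mitochondrial and endoplasmic reticulum protein that hinders flaviviruses, had 21.2, 22.6 and 22.8 CPM in PPM1G shRNA and 11.4, 10.7 and 12.1 CPM in control libraries (log2 fold change 0.96 ± 0.078, SE, adjusted p = 5.9e-13). IFI27, the second most abundant gene of the list per length (by FPKM), had 241, 261 and 249 CPM in PPM1G shRNA and 138, 138 and 159.6 CPM in control libraries (log2 fold change 0.79 ± 0.048, SE, adjusted p = 1.6e-10). All 3 were separated by library. IFI35 was called with overlapping groups, 21.3, 25.5 and 24.6 CPM in PPM1G shRNA and 19.3, 18.4 and 21.4 CPM in control libraries (log2 fold change 0.27 ± 0.076, SE, adjusted p = 0.0017), and IFI44L differed by little (log2 fold change 0.16 ± 0.037, SE, adjusted p = 0.00029). IFI44, beside IFI44L on chromosome 1, had 103, 107 and 107 CPM in PPM1G shRNA and 102, 99.7 and 99.6 CPM in control libraries, groups that did not overlap but gave no call (log2 fold change 0.070 ± 0.037, SE, adjusted p = 0.082).

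Among the TRIM and SP factors, 4 were higher and 2 lower. TRIM22, a nuclear repressor of HIV-1 and influenza virus, had 30.1, 29.8 and 30.5 CPM in PPM1G shRNA and 13.2, 12.5 and 11.99 CPM in control libraries (log2 fold change 1.26 ± 0.071, SE, adjusted p = 3.7e-17). TRIM5, which recognises retroviral capsids and lies beside TRIM22 on chromosome 11, fell to 54.8, 52.2 and 49.6 CPM in PPM1G shRNA libraries, against 86.5, 81.5 and 84.9 CPM in control libraries (log2 fold change -0.69 ± 0.045, SE, adjusted p = 2.3e-15). These genes adjoin in RefSeq (chr11:5588635-5685074 and chr11:5689790-5710863) and overlap on opposite strands in GENCODE v29. SP100, a core protein of PML nuclear bodies, had 164, 159 and 165 CPM in PPM1G shRNA and 90.00, 86.8 and 86.5 CPM in control libraries (log2 fold change 0.89 ± 0.036, SE, adjusted p = 4e-21). SP110, a nuclear body protein encoded nearby, was also higher, with 41.5, 45.8 and 43.7 CPM in PPM1G shRNA and 29.3, 26.6 and 25.7 CPM in control libraries (log2 fold change 0.69 ± 0.058, SE, adjusted p = 1.6e-12). For TRIM22, SP100 and SP110 every PPM1G shRNA library exceeded every control library. TRIM21, a cytosolic receptor for antibody-coated viruses, was higher by a log2 fold change of 0.33 ± 0.051 (SE). TRIM14, an adapter of antiviral signalling, had 67.3, 63.7 and 61.5 CPM in PPM1G shRNA and 85.9, 87.5 and 81.6 CPM in control libraries (log2 fold change -0.41 ± 0.044, SE, adjusted p = 4.5e-10).

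The ADP-ribosyltransferases and their partner were all higher. DTX3L, a ubiquitin ligase, and PARP9 form a complex and are transcribed in opposite directions from the shared promoter whose site is printed above. DTX3L had 169, 159.7 and 167 CPM in PPM1G shRNA and 88.2, 88.9 and 80.5 CPM in control libraries (log2 fold change 0.95 ± 0.039, SE, adjusted p = 1.6e-20). PARP9 had 131, 126 and 136 CPM in PPM1G shRNA and 74.3, 72.2 and 71.4 CPM in control libraries (log2 fold change 0.85 ± 0.039, SE, adjusted p = 1.6e-19). The partners thus differed from control by nearly equal amounts. PARP10 had 107, 109 and 108 CPM in PPM1G shRNA and 66.8, 63.3 and 67.5 CPM in control libraries (log2 fold change 0.71 ± 0.040, SE, adjusted p = 4.1e-17). All 3 genes were separated by library. PARP14 and PARP12 were higher by less, with log2 fold changes of 0.50 ± 0.033 and 0.28 ± 0.044 (SE). The SAMD9 pair, adjoining inhibitors of poxvirus translation on chromosome 7, was also higher: SAMD9L had 154, 156 and 157 CPM in PPM1G shRNA and 116, 119.8 and 110.3 CPM in control libraries (log2 fold change 0.43 ± 0.036, SE, adjusted p = 9.5e-13), and SAMD9 205, 202 and 199 CPM and 177, 178 and 167 CPM (log2 fold change 0.22 ± 0.033, SE, adjusted p = 3.3e-07).

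The guanylate-binding proteins, GTPases that attack pathogen-containing vacuoles and are best known as targets of interferon gamma, were the only role with more genes lower than higher. GBP1 fell to 31.4, 30.3 and 32.3 CPM in PPM1G shRNA libraries, against 71.5, 65.3 and 63.8 CPM in control libraries (log2 fold change -1.09 ± 0.051, SE, adjusted p = 2.4e-19). GBP3 had 53.1, 54.5 and 57.5 CPM in PPM1G shRNA and 89.8, 88.4 and 82.9 CPM in control libraries (log2 fold change -0.66 ± 0.045, SE, adjusted p = 6.1e-15). GBP2, the next gene along, was higher, with 166, 174 and 171 CPM in PPM1G shRNA and 117, 116 and 125 CPM in control libraries (log2 fold change 0.51 ± 0.035, SE, adjusted p = 8.8e-15). The order on chromosome 1 is GBP3, GBP1 and GBP2, from 89006680 to 89126114. GBP1 and GBP3 are paralogs that could share reads, which was not examined. The GBP1 and GBP3 sites printed above stand at -127 and +3 from the annotated starts.

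Of the membrane factors and apolipoproteins L, 3 were higher, 1 was lower and 2 were not called. PLSCR1, a phospholipid scramblase that blocks viral entry, had 56.2, 54.8 and 57.99 CPM in PPM1G shRNA and 36.9, 33.6 and 31.1 CPM in control libraries (log2 fold change 0.73 ± 0.054, SE, adjusted p = 6.6e-14). LY6E, a surface protein that restricts coronaviruses, had 51.9, 52.8 and 49.1 CPM in PPM1G shRNA and 62.8, 62.6 and 71.8 CPM in control libraries (log2 fold change -0.36 ± 0.051, SE, adjusted p = 1.5e-07). These groups did not overlap for either gene, in opposite directions. BST2 (tetherin), which holds budding virions at the cell surface, had 28.8, 29.4 and 31.9 CPM in PPM1G shRNA and 25.3, 28.01 and 29.4 CPM in control libraries, overlapping groups with no call (log2 fold change 0.12 ± 0.065, SE, adjusted p = 0.076). APOL1, the trypanolytic factor of human serum, had 58.5, 56.8 and 55.01 CPM in PPM1G shRNA and 40.5, 40.5 and 39.4 CPM in control libraries (log2 fold change 0.50 ± 0.047, SE, adjusted p = 1.9e-11), and APOL6 was higher by less (log2 fold change 0.34 ± 0.041, SE, adjusted p = 4.7e-09). Both rose with no overlap between groups. APOL2 had 44.1, 43.8 and 46.1 CPM in PPM1G shRNA and 46.3, 45.4 and 51.3 CPM in control libraries and was not called (log2 fold change -0.094 ± 0.051, SE, adjusted p = 0.09).

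The steepest increases were in genes that were weakly expressed in control libraries. The control level enters the fold change, so level and change are not independent, and their relation over all genes was not examined. Of the 55 genes, 5 had a control mean under 1 FPKM and 4 had one of at least 100 FPKM. The largest increases belonged to MX2, RSAD2 and OASL, with control means of 0.618, 0.298 and 1.67 FPKM. Weak expression did not fix the direction, since OAS3 at 1.02 FPKM in PPM1G shRNA and 2.03 FPKM in control libraries fell. IFIT3 and IFIT2 were both well expressed and strongly changed, with IFIT3 at 80.6 FPKM in PPM1G shRNA and 25.9 FPKM in control libraries and IFIT2 at 40.8 FPKM in PPM1G shRNA and 10.1 FPKM in control libraries.

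**Figure D3:**
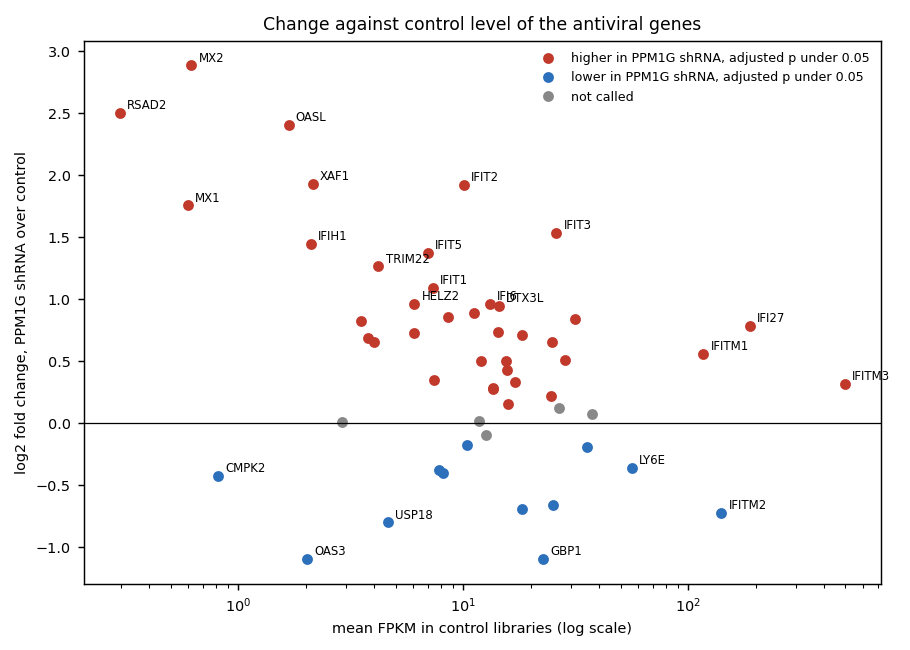
Log2 fold change, PPM1G shRNA over control, of the 54 tested antiviral genes against their mean FPKM in control libraries (log axis, n = 3). MX2, RSAD2 and OASL stand at the upper left, and IFITM3, IFI27 and IFITM1 lie above 0 at the right, where IFITM2 lies below it.

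Neighbours on a chromosome did not always share a direction. With genes joined when less than 300 kb apart, 32 of the 55 fell into 13 clusters. In 8 clusters every call was higher, among them the IFIT, MX, SP110-SP100 and PARP9-DTX3L-PARP14 clusters. These 8 also include the IFI44L-IFI44, APOL2-APOL1 and HERC6-HERC5 clusters, where only 1 gene was called and no agreement is shown. How often neighbours agree among all genes was not counted. In 5 clusters calls went both ways, namely the GBP, IFITM, TRIM5-TRIM22, OAS and CMPK2-RSAD2 clusters, and in 0 clusters were all calls lower. In GENCODE v29, 17 of the 55 genes overlap a protein-coding gene, 14 of them on the opposite strand, where reads cannot be told apart if the counting ignored strand. On the same strand 6 genes overlap a protein-coding gene, among them IFITM1 and IFITM2, and there strand does not separate the reads. Some genes have both kinds of overlap.

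The ISRE core matched at 50 gene sites, of which 46 began before the transcript start and 25 within 100 bases before it. Of the 28 tested genes with a match, 19 were higher, 7 lower and 2 not called, with a median log2 fold change of 0.42. Among all genes tested, 41.5% were higher and 41.3% lower, with a median of 0.015. Of the 11 tested genes with a window but no match, 8 were higher, 2 lower and 1 not called, with a median of 0.65. Among them were XAF1, HELZ2 and SP100. The 15 genes without a window stand outside this split. They include MX2, OASL and IFIT2, which rose, and IFITM2 and USP18, which fell. No match does not mean no element: OAS1, TRIM25, XAF1, CMPK2, IFI35 and SP110 hold GAAA repeats spaced more closely than the core, which were not counted. The shorter letters AANNGAAA, which every ISRE core contains, were found in 38 of the 40 genes (95%) and in 26.7% of all genes with a window. A match describes letters only and does not show that a factor was bound.

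**Figure D4:**
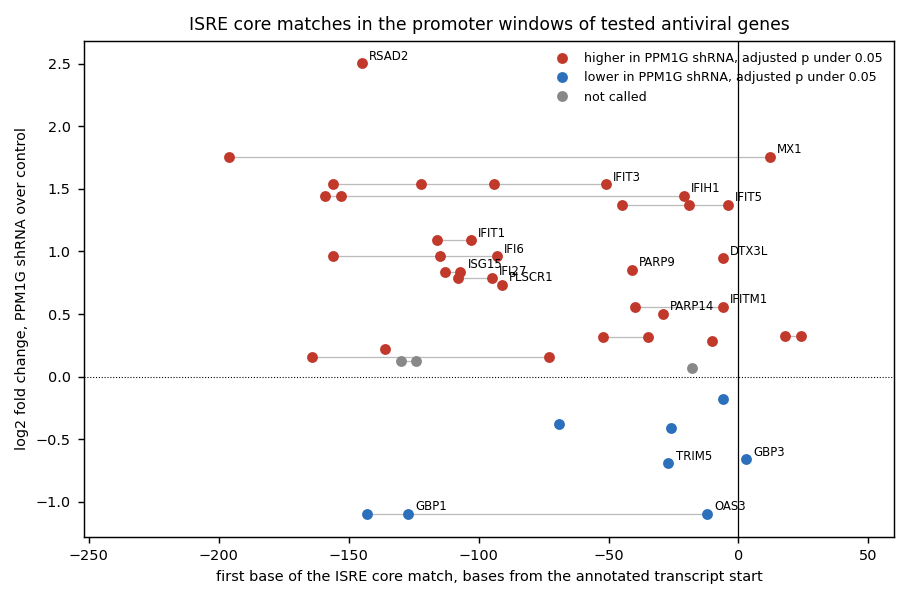
First base of each ISRE core match, in bases from the annotated transcript start, against the log2 fold change, PPM1G shRNA over control, of the gene that holds it; lines join matches of 1 gene. Most matches lie before the start, both for genes above 0 such as RSAD2 and IFIT3 and for genes below 0 such as OAS3 and GBP1.

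Other layers of the interferon system were counted from lists that hold none of the 55 genes. Their shares stand beside 41.5% higher and 41.3% lower of all genes tested. Interferon genes themselves were almost silent. Of 9 ligand genes in the table only IFNE, an epithelial type I interferon, had enough counts to test. IFNE had 11, 9 and 14 counts in PPM1G shRNA and 20, 28 and 22 counts in control libraries (log2 fold change -1.08 ± 0.39, SE, adjusted p = 0.012). Only the control group reached the minimum count for testing in every library, which favoured this direction. Without PPM1G shRNA replicate 2 or control replicate 2 the adjusted p of IFNE was 0.0624 or 0.0608. IFNB1, the interferon that infected epithelial cells make first, had 2, 3 and 0 counts in PPM1G shRNA and 0, 1 and 0 counts in control libraries, a ratio of 4.84 after scaling (95% exact interval 0.541 to 229). The other 7 ligand genes had at most 1 count in any library.

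Of 13 receptor and JAK-STAT genes, 8 were higher (61.5%), 1 lower (7.69%) and 4 not called. IRF9 and its partner STAT2 were both higher. IRF9 had 191, 193 and 196 CPM in PPM1G shRNA libraries, against 51.8, 44.8 and 44.6 CPM in control libraries (log2 fold change 2.04 ± 0.045, SE, adjusted p = 8.1e-27). STAT2 had 138, 133 and 129.8 CPM in PPM1G shRNA and 65.7, 66.5 and 73.7 CPM in control libraries (log2 fold change 0.96 ± 0.043, SE, adjusted p = 1.2e-19). IRF9 had the larger log2 fold change, and the groups did not overlap for either gene. STAT3, the transducer of interleukin-6 signals, was higher as well (log2 fold change 1.61 ± 0.033, SE, adjusted p = 4.7e-29). The type I receptor chains were not called, with IFNAR1 at 40.4, 38.4 and 39.9 CPM in PPM1G shRNA and 43.5, 42.7 and 41.3 CPM in control libraries (log2 fold change -0.10 ± 0.050, SE).

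Interferon regulatory factors held some of the largest changes of the system, with 3 higher (60%), 1 lower (20%) and 1 not called of the 5 tested. IRF7, the amplifier of interferon gene induction, had 29.4, 28.8 and 31.9 CPM in PPM1G shRNA libraries, against 4.14, 3.85 and 4.44 CPM in control libraries (log2 fold change 2.86 ± 0.089, SE, adjusted p = 3.7e-24). IRF1, an activator that binds ISRE-like sites directly, had 104, 105 and 106 CPM in PPM1G shRNA libraries, against 17.3, 16.3 and 16.9 CPM in control libraries (log2 fold change 2.64 ± 0.049, SE, adjusted p = 2.5e-30). IRF2, which competes with IRF1, was higher by a log2 fold change of 0.25 ± 0.040 (SE), and IRF3, the first responder downstream of the sensors, gave -0.19 ± 0.066 (SE), a call lost with plain library totals.

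Of 16 sensors, adapters and kinases, 8 were higher (50%), 7 lower (43.8%) and 1 not called, with a median log2 fold change of -0.031. These shares lie near the 41.5% and 41.3% of all genes tested. DDX58 (RIG-I), the sensor of short RNA with a 5′ triphosphate, had 45.5, 40.2 and 45.5 CPM in PPM1G shRNA and 22.1, 19.9 and 21.7 CPM in control libraries (log2 fold change 1.04 ± 0.062, SE, adjusted p = 1.8e-16). IFI16, a nuclear DNA sensor, had 429, 391 and 422 CPM in PPM1G shRNA and 228, 206 and 188 CPM in control libraries (log2 fold change 1.00 ± 0.079, SE, adjusted p = 5.2e-05). IKBKE, a kinase that activates IRF3 and IRF7, fell to 4.39, 3.89 and 3.85 CPM in PPM1G shRNA libraries, against 10.7, 9.70 and 11.03 CPM in control libraries (log2 fold change -1.38 ± 0.12, SE, adjusted p = 1.2e-12).

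Feedback inhibitors were mostly higher, 11 higher (64.7%), 4 lower (23.5%) and 2 not called of 17 with a median of 0.22, but the SOCS genes differed among themselves. SOCS1, a brake on JAK1 and TYK2, fell to 2.75, 3.08 and 4.17 CPM in PPM1G shRNA libraries, against 11.6, 10.6 and 12.1 CPM in control libraries (log2 fold change -1.77 ± 0.13, SE, adjusted p = 4.9e-14). SOCS3, which acts on interleukin-6 family receptors, had 26.6, 24.9 and 26.5 CPM in PPM1G shRNA and 11.5, 13.6 and 13.5 CPM in control libraries (log2 fold change 1.01 ± 0.077, SE, adjusted p = 9.9e-14). SOCS2, which acts on growth hormone signals, had 4.05, 3.27 and 3.20 CPM in PPM1G shRNA and 2.39, 1.02 and 1.65 CPM in control libraries (log2 fold change 1.05 ± 0.23, SE, adjusted p = 0.0001). SOCS1, like USP18 described above, was lower in the libraries in which IRF9, STAT2 and most antiviral genes were higher. Most of the feedback list was higher, and a link between these changes was not tested.

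Further restriction factors that are not on the antiviral list had 17 higher (63%), 7 lower (25.9%) and 3 not called of 27 tested, with a median log2 fold change of 0.38. CH25H, which makes the antiviral sterol 25-hydroxycholesterol, was near the detection limit, with 1.02, 1.35 and 0.646 CPM in PPM1G shRNA and 0.117, 0.0874 and 0.145 CPM in control libraries (log2 fold change 3.07 ± 0.46, SE, adjusted p = 3.4e-07). SLFN13, a ribonuclease that cleaves transfer RNA, was as scarce, with 0.896, 0.973 and 0.404 CPM in PPM1G shRNA and 0.321, 0.175 and 0.174 CPM in control libraries (log2 fold change 1.74 ± 0.44, SE, adjusted p = 0.00061). Control counts were 4, 3 and 5 for CH25H and 11, 6 and 6 for SLFN13. Both genes passed the minimum count of 10 only with the PPM1G shRNA group, which favoured this direction. APOBEC3B, a nuclear cytidine deaminase known for mutating tumour genomes, fell to 9.52, 7.51 and 8.59 CPM in PPM1G shRNA libraries, against 37.2, 34.9 and 34.4 CPM in control libraries (log2 fold change -2.06 ± 0.079, SE, adjusted p = 1.5e-21).

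Interferon-induced chemokines and antigen presentation genes had 12 higher (57.1%), 8 lower (38.1%) and 1 not called of 21 tested, with a median of 0.16. CCL5, a T cell chemokine, had 0.835, 0.756 and 0.538 CPM in PPM1G shRNA and 0.204, 0.175 and 0.0290 CPM in control libraries (log2 fold change 2.35 ± 0.49, SE, adjusted p = 6e-05). Its counts were 27, 28 and 20 in PPM1G shRNA and 7, 6 and 1 in control libraries. CCL5 passed the minimum count only with the PPM1G shRNA group, which favoured this direction. WARS1, the interferon-induced tryptophanyl-tRNA synthetase, had 845, 843 and 844 CPM in PPM1G shRNA and 255, 244 and 255 CPM in control libraries (log2 fold change 1.75 ± 0.028, SE, adjusted p = 5.8e-32). TAP2, a subunit of the peptide transporter for antigen presentation, fell to 47.3, 48.8 and 47.4 CPM in PPM1G shRNA libraries, against 111, 106 and 108 CPM in control libraries (log2 fold change -1.18 ± 0.042, SE, adjusted p = 1.3e-22). The chemokines CXCL9, CXCL10 and CXCL11, usual companions of an interferon response, were too scarce to test, with at most 12 counts in a library.

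**Figure D5:**
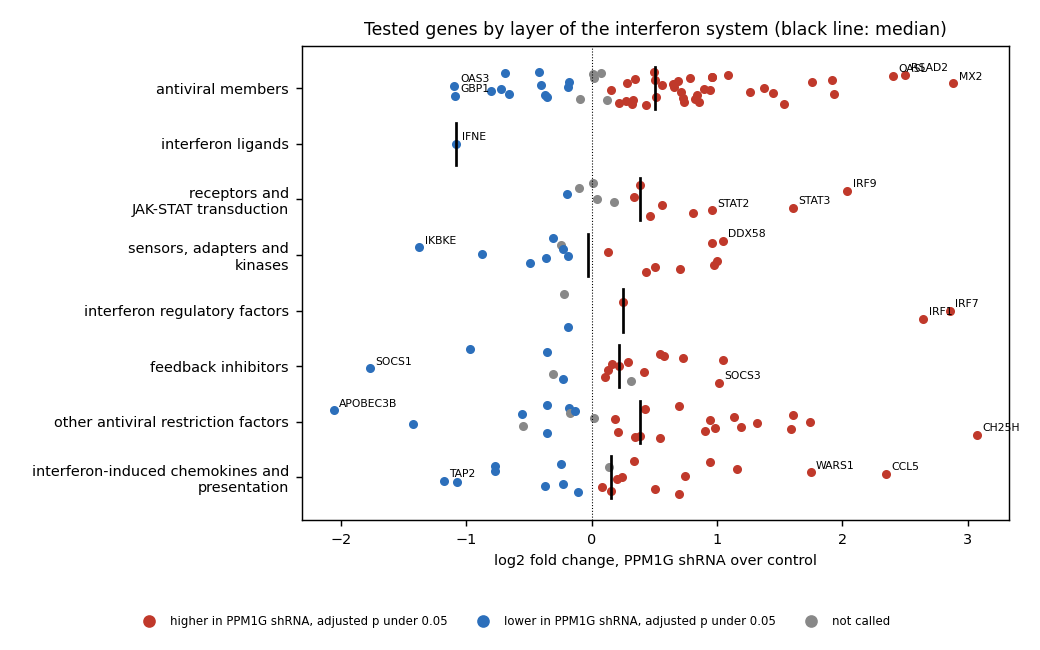
Log2 fold change, PPM1G shRNA over control, of each tested gene in the antiviral list and in 7 other lists of the interferon system; black lines mark the median of each list. The antiviral genes have a median of 0.51 and the sensors, adapters and kinases -0.031. The single tested ligand gene, IFNE, had few counts and lies at -1.08.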

How the data were processed

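Total RNA of 6 NCI-H1703 libraries was sequenced, 3 with PPM1G shRNA and 3 control, and grouped by the genotype label. The authors deposited whole-number read counts per gene and FPKM values per gene for each library. GRCh38 is the genome build per the submitters' processing notes. The aligner, the counter, its annotation and its strand setting were not given in the sources used here. FPKM as deposited equal the count divided by gene length and library total.

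Counts were tested with edgeR 4.0.16 in R 4.3.3 (TMM scaling, a minimum count of 10, robust quasi-likelihood F-test, Benjamini-Hochberg adjustment over all 13060 genes tested, threshold 0.05). The same steps had first been run on simulated data in which few genes differed. That run does not cover scaling when most genes differ, as they did here. Standard errors were taken from the log2 fold change and the F statistic. CPM values use the TMM-scaled totals. DESeq2 1.42.0 on counts and limma 3.58.1 on log2(FPKM + 1) and log2(FPKM + 0.1) served as alternatives, along with other scalings and filters and the omission of each library in turn. Replicates differed beyond sampling noise (2.69 to 6.44, chi-square over its degrees of freedom). Each library was counted as a sample, although this spread may be technical and does not show that the cultures were separate. Gene positions and promoter sequences are from RefSeq (GRCh38.p14), and overlaps between genes from GENCODE v29 (GRCh38). Sites with overlapping letters were each counted.

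The members and the pathway lists were chosen with earlier results of these data known, so counts over them are descriptions. Named genes are, in each role, up to 3 called members with the largest absolute log2 fold change and a log2 CPM of at least 0, then every member that was lower or not called, the 5 members with the highest FPKM, the member under the filter, and up to 3 called genes of each pathway list; other members were added after their values were seen, to complete each role.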

Additional observations from a re-analysis of the deposited data

How the results depend on the processing

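PPM1G was lower in every alternative run. Between 37 and 39 antiviral genes were called higher and between 10 and 13 lower over the alternatives. The median log2 fold change of the antiviral genes was 0.55 with upper-quartile scaling, 0.61 with plain library totals, 0.58 on log2(FPKM + 1) and 0.605 on log2(FPKM + 0.1), which shift all genes as well: the median of all genes tested was 0.115 with plain totals, and the difference between both medians stayed between 0.486 and 0.517. The receptor and JAK-STAT genes called lower numbered 2 with RLE scaling and 0 with plain totals, and 1 to 2 when single libraries were left out. The interferon regulatory factors called lower were 0 with plain totals and on both FPKM scales. The ligands called lower were 0 with a floor of 1 CPM and 0 to 1 when single libraries were left out. The share of the 40 genes with a match at any listed start was 95% with the shorter letters AANNGAAA and 25% with the interferon-gamma element TTCNNNGAA. Among all genes with a window, these shares were 26.7% and 9.38%. APOL2 changed sign to 0.0068 with plain totals and to 0.0073 and 0.0079 on the FPKM scales. Leaving out single libraries gave OAS1 -0.033 to 0.078 and UBA7 -0.035 to 0.099. CMPK2 missed the threshold with DESeq2 (adjusted p = 0.051), plain totals (adjusted p = 0.0951) and 4 of the 6 single libraries left out (adjusted p = 0.0674 to 0.114), EIF2AK2 with plain totals (adjusted p = 0.119) and on both FPKM scales (adjusted p = 0.274 and 0.271), and APOL2 passed it without control replicate 2 (edgeR adjusted p = 0.039). IFI44 and BST2 were called higher with upper-quartile scaling (edgeR adjusted p = 0.00778 and 0.0214) and plain totals (edgeR adjusted p = 0.000106 and 0.00207), and with limma on log2(FPKM + 1) (adjusted p = 0.000551 and 0.00556) and log2(FPKM + 0.1) (adjusted p = 5e-04 and 0.00462). IFI44 was also called with a floor of 1 CPM (edgeR adjusted p = 0.0468), and BST2 without control replicate 3 (edgeR adjusted p = 0.0123). The cause of these shifts was not tested. Same-numbered libraries did not deviate together (correlations of 0.0142, -0.0203 and 0.00364), and a replicate block left 37 antiviral genes higher and 12 lower, and gave 5423 for all genes called higher and 5382 for all genes called lower. Depth limits HERC5 and the interferon genes other than IFNE, whose counts were too few to test.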
